A study of Mus musculus with 2 samples.

Results

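Upper-layer cortex spots are the capture spots of a spatial transcriptomics slide whose RNA carried the vesicular glutamate transporter Slc17a7 together with genes of the superficial cerebral cortex. A spot was taken when it held at least 500 unique molecular identifiers (UMIs, each standing for 1 captured RNA molecule), at least 2 UMIs of Slc17a7, and at least 2 UMIs summed over Cux2, Rorb, Lamp5, Rasgrf2 and Calb1, with that sum larger than the sum over the deep-layer genes Fezf2, Foxp2, Tle4, Hs3st4, Rprm and Crym. This rule found 126 of 1493 spots in the flat library and 112 of 2198 spots in the micropillar library, 238 of 3691 spots in all. The rule itself used measured counts of these 12 genes, so their levels are given as a description, and so are all levels that move with them.

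The study compared nude mice, which lack a thymus and therefore most T cells, that carried a flat implant with nude mice that carried a micropillar implant, whose surface bears a relief of small pillars. There was 1 library per implant, the labels give the tissue as bone, and the sections were fixed in formalin and embedded in paraffin (FFPE). The labels do not give the age, sex or number of the animals, the site of the implant or its material. With 1 library per implant no difference between implants could be tested, and every interval below is a 95% interval that covers counting error only. Each spot samples the RNA of a patch of tissue, often from more than 1 cell, and fewer cells of a type cannot be told apart from less RNA per cell.

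The neocortex is built of layers of excitatory neurons that release glutamate, which Slc17a7 loads into synaptic vesicles. Neurons of the upper layers connect mainly with other cortical areas and express the transcription factor Cux2 and the membrane protein Lamp5 (in mouse), whereas neurons of the deep layers project to thalamus, brainstem and spinal cord and depend on regulators such as Fezf2, Foxp2 and Tle4. Myelin, made by oligodendrocytes, becomes denser from the cortical surface towards the white matter. Neural spots were found in both libraries although the labels name bone, and no result rests on where a spot lay.

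The libraries differed outside the cortex spots. Spots with at least 10 UMIs of the collagen genes Col1a2 and Col3a1, called matrix-gene spots, numbered 43 (flat) and 181 (micropillar). Upper-layer spots, and deep-layer spots chosen by the mirrored rule, were left out of this set. Spots with at least 500 UMIs had a median depth of 1032 UMIs (flat) and 1095 UMIs (micropillar), and totals of 1959977 and 2916253 UMIs. The upper-layer spots were deeper than the rest. They held between 712 and 4296 UMIs with a median of 2324.5 in the flat library, and between 938 and 6220 with a median of 2483 in the micropillar library, against medians of 984 and 1063 UMIs in the other spots.

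The rule needs several UMIs of sparse genes, and the share of spots taken rose with depth. Upper-layer spots made up 8.44% of the spots in the flat library (exact binomial interval 7.08% to 9.97%) and 5.10% in the micropillar library (4.21% to 6.10%). From the shallowest to the deepest of 4 depth ranges the share went from 0.706% to 42.2% in the flat library and from 0.420% to 29.1% in the micropillar library. In each of the 4 ranges the flat share was the higher. Spots of different depth can also come from different tissue, and the parts of tissue and detection in this rise were not tested. After every spot was thinned to 500 UMIs, 4 of 1493 flat spots and 4 of 2198 micropillar spots still met the marker part of the rule. Thinned to 1000 UMIs, 34 of 785 flat spots (4.33%) and 32 of 1246 micropillar spots (2.57%) met it. Of spots with at least 2 Slc17a7 UMIs, 30.1% were upper-layer spots in both libraries (126 of 419 and 112 of 372), 22.2% and 24.5% were deep-layer spots by the mirrored rule, and 2.63% and 1.88% had equal upper and deep sums of at least 2.

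**Figure D1:**
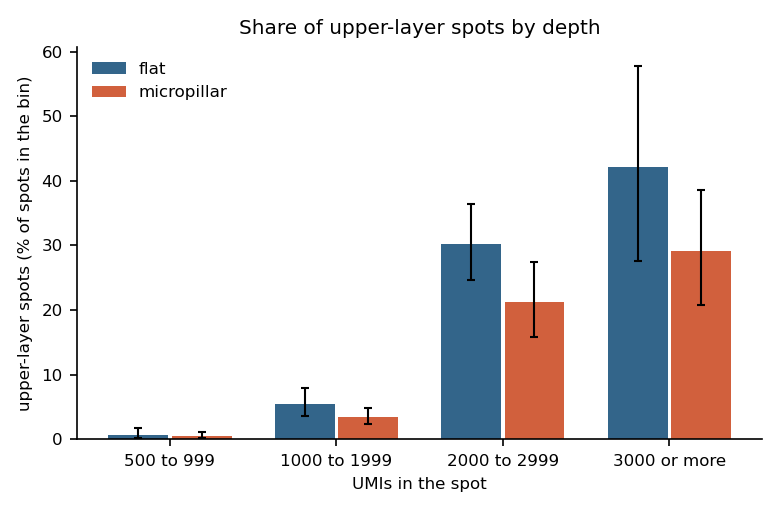
Share of spots that met the rule (percent, vertical axis) in 4 ranges of UMIs per spot (horizontal axis), flat library in blue and micropillar library in orange, with exact 95% binomial intervals for counting error. The share reached 42.2% of the deepest flat spots and 29.1% of the deepest micropillar spots, and was 0.706% and 0.420% in the shallowest range.

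The label rests on Lamp5, Rasgrf2, Calb1 and Cux2. In the flat upper-layer spots 134 UMIs came from Lamp5, 132 from Rasgrf2 (an exchange factor for Ras), 117 from the calcium buffer Calb1 and 51 from Cux2. The micropillar upper-layer spots held 100, 113, 96 and 47 UMIs of the same genes, in that order. Rorb, a nuclear receptor used as a marker of layer 4, gave 5 UMIs in the flat and 3 UMIs in the micropillar spots and hardly contributed. At least 2 different upper-layer genes of the rule were found in 100 of the 126 flat spots (79.4%) and in 94 of the 112 micropillar spots (83.9%). No spot held all 5.

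To look at each marker without its own part in the choice, spots were chosen again with that gene taken out of the rule. Lamp5 was then at 338 CPM (a gene's UMIs per 1000000 UMIs of the set of spots) in the chosen flat spots and 109 CPM in the other flat spots, a log2 ratio of 1.62 (1.23 to 2.03), and at 216 against 109 CPM in the micropillar ones, with a ratio of 0.98 (0.47 to 1.48). Cux2 gave log2 ratios of 1.38 and 1.30 and Rasgrf2 of 1.04 and 1.25, flat library first. Calb1, which many inhibitory neurons also express, gave 0.79 (0.41 to 1.15) and 0.22 (-0.23 to 0.65), so in the micropillar library its interval spans 0. Slc17a7 gave 0.44 and 0.55, and Rorb had too few UMIs to place (2 and 1 in the chosen spots). Each gene taken out was thus higher in the chosen spots than in all other spots, with Calb1 in the micropillar library and Rorb not separable from equal levels at this depth. Of the spots outside the full rule 34.2% (flat) and 26.1% (micropillar) held a Slc17a7 UMI. Against such a mixture these ratios cannot tell upper-layer from other cortical spots, and they were not made against deep-layer spots.

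A Slc17a7 UMI was present in 4.65% of the flat matrix-gene spots (2 of 43) and in 13.8% of the micropillar ones (25 of 181). Upper-layer and deep-layer spots, all chosen for Slc17a7, were left out of the matrix-gene spots, which can lower these shares. Matrix-gene spots also held 1748 and 4747 CPM of synaptic vesicle genes, so they were not free of neuronal RNA. The median depth of those spots was 657 and 878 UMIs. At an equal 500 UMIs the shares were 2.33% and 6.63% in matrix-gene spots. They were 61.9% and 56.2% in the upper-layer spots, which the rule chose for Slc17a7. The 31 flat and 41 micropillar spots taken with exactly 2 Slc17a7 UMIs held 945 and 777 CPM of the 18 upper-layer genes that the rule does not use. The 45 and 56 spots left out because they had exactly 1 held 837 and 717 CPM.

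Compared with all other spots, the upper-layer spots carried more RNA of cortical excitatory neurons and less RNA of striatum, hypothalamus, myelin, skin and connective tissue. Of 4451 genes compared (at least 50 CPM in either set in each library, genes of the rule left out), 22 were at least 2-fold higher in both libraries (0.494%) and 142 at least 2-fold lower (3.19%). The median log2 ratio over all genes was 0.00 (flat) and 0.02 (micropillar), and 50.3% and 51.9% of genes lay above 0. The sign was the same in both libraries for 67.8% of genes. The genes of highest ratio were Igfn1, Stx1a, Tmem215, Ccn3, Adra1d, Ak5, Gm11549, Frzb, Nptxr, Mef2c, Tafa1, Tafa2, Rtn4rl2, Slc30a3 and Pgbd5.

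Several of these genes serve the synapse. Stx1a encodes a syntaxin of the machinery that fuses synaptic vesicles with the membrane. It stood at 280 CPM in the flat and 223 CPM in the micropillar upper-layer spots, against 80.6 and 61.4 CPM in the other spots, log2 ratios of 1.78 (1.38 to 2.20) and 1.84 (1.41 to 2.29). Its UMIs were spread over 61 of the 126 flat spots and 41 of the 112 micropillar spots, with no spot above 4. Slc30a3, which loads zinc into glutamate vesicles of the forebrain, stood at 398 and 438 CPM against 185 and 144 CPM, log2 ratios of 1.10 and 1.59. Nptxr, a receptor for neuronal pentraxins that helps gather glutamate receptors, stood at 1267 and 937 CPM against 494 and 388 CPM, log2 ratios of 1.36 and 1.27. For each of these genes the ratio to other spots was past 2-fold in both libraries. Deep-layer spots also held them. A Slc30a3 UMI was present in 56.35% and 56.25% of upper-layer spots and in 37.63% and 50.55% of deep-layer spots. For Nptxr the shares were 89.68% and 78.57% against 65.59% and 62.64%, and for Stx1a 48.41% and 36.61% against 19.35% and 23.08%.

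Genes of regulation and signalling followed. Mef2c, a transcription factor active in excitatory neurons, stood at 593 CPM in the flat and 334 CPM in the micropillar upper-layer spots, with log2 ratios against other spots of 1.33 and 1.26. Adra1d, an adrenergic receptor that responds to noradrenaline, stood at 219 and 190 CPM, with log2 ratios of 1.44 and 1.37. Rtn4rl2, a relative of the Nogo receptor, had ratios of 1.15 and 1.47. Frzb, a secreted inhibitor of Wnt signalling, had ratios of 1.33 and 1.38, and the matricellular protein gene Ccn3 of 1.51 and 1.48. Ak5, a neuronal adenylate kinase, had ratios of 1.34 and 1.34. Igfn1 had the highest smaller ratio of all, 2.02 (1.30 to 2.83) and 2.24 (1.44 to 3.16), from 27 and 19 UMIs. Some of these genes were nearly as common in deep-layer spots. Rtn4rl2 was found in 29.37% and 26.79% of upper-layer and in 17.2% and 25.27% of deep-layer spots. For Ak5 the shares were 26.19% and 28.57% against 20.43% and 23.08%. Igfn1 was rarer in deep-layer spots, at 15.87% and 13.39% against 4.301% and 6.593%.

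**Figure D2:**
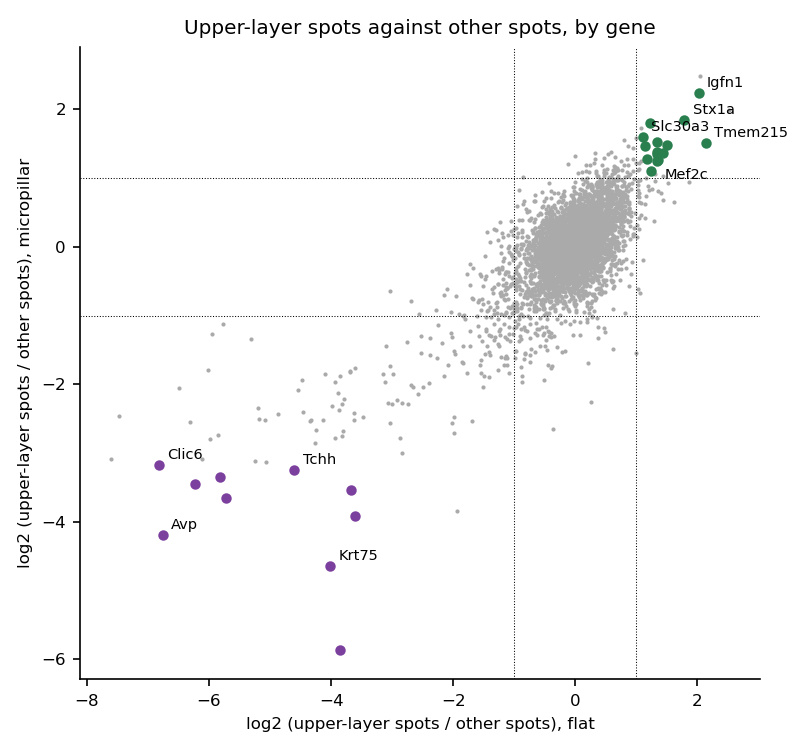
Each point is a gene, placed by its log2 ratio of summed CPM in upper-layer spots over all other spots, flat library on the horizontal and micropillar library on the vertical axis, with dotted lines at 2-fold. Green points are the 15 named genes of highest ratio (Stx1a at 1.78 and 1.84) and purple points the 10 of lowest ratio (Avp at -6.76 and -4.19).

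Of 14 compared genes of cortical excitatory neurons, 13 were higher in both libraries, 4 of them at least 2-fold, with list medians of 0.79 (flat) and 1.00 (micropillar) on the log2 scale. Summed over its 17 genes, that list stood at 11620 against 7549 CPM in the flat and 9642 against 5083 CPM in the micropillar library. Deep-layer spots were close, at 9853 and 9220 CPM. The log2 ratios of upper-layer to deep-layer spots were 0.238 (0.159 to 0.318) and 0.065 (-0.018 to 0.148). Of 14 compared genes of the synaptic vesicle and its release machinery, 11 were higher in both libraries and 1 lower. Snap25, the partner of Stx1a at the plasma membrane, stood at 5525 and 4785 CPM against 3564 and 2811 CPM. Of 13 compared genes of the calmodulin pathway, which couples calcium entry to kinases, 11 were higher in both and 1 lower, and Camk2n1, an inhibitor of CaMKII, stood at 5727 and 3952 CPM against 3117 and 2090 CPM. Pcp4l1 went the other way, at 50.6 and 50.2 CPM against 170 and 119 CPM. The calmodulin list is not particular to the upper-layer spots, which held 22810 and 18290 CPM of it. The 24 flat and 12 micropillar spots rich in striatal genes held more, at 31280 and 30130 CPM. Genes of mitochondrial oxidative phosphorylation, summed over the list, had log2 ratios of 0.00 (-0.08 to 0.08) and 0.02 (-0.06 to 0.10).

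The genes of lowest ratio included several known from tissues other than cortex. Avp, the vasopressin precursor of the hypothalamus, stood at 13.5 CPM (4 UMIs) in the flat and 129 CPM (36 UMIs) in the micropillar upper-layer spots, against 1570 and 2381 CPM in the other spots. The hair and skin genes Tchh, Krt75, Klk7 and Cnfn followed, with Tchh at 27.0 and 115 CPM against 678 and 1098 CPM. Clic6, a chloride channel gene strong in choroid plexus, had no UMI in the flat upper-layer spots and 3 in the micropillar ones. Taken against 3 counts, it was at least 11.1-fold lower in the flat upper-layer spots than in the other spots. Teddm3, Chit1 and Pinlyp were also among the 10 lowest, with no more than 2 UMIs each in either library.

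Striatal and most glial genes were lower. Of 5 compared striatal genes all 5 were lower in both libraries, 4 at least 2-fold. Ppp1r1b, which encodes the dopamine-regulated phosphatase inhibitor DARPP-32, stood at 404 and 431 CPM against 2118 and 1086 CPM. Hippocampal and claustral genes, summed, were not separable from the other spots, at 361 and 398 CPM against 434 and 460 CPM, log2 ratios of -0.27 (-0.57 to 0.03) and -0.21 (-0.50 to 0.08). The median depth of the 24 flat and 12 micropillar spots rich in striatal genes was 1307 and 901.5 UMIs. A Slc17a7 UMI was seen in 2 of the 24 and in 0 of the 12. Upper-layer and deep-layer spots, all chosen for Slc17a7, were left out of this set too, which can lower these counts. All 8 compared oligodendrocyte genes were lower in both libraries, 4 at least 2-fold, with a summed level of 1352 and 1813 CPM against 3241 and 3789 CPM. All 3 compared microglia genes were lower in both libraries, 2 of them at least 2-fold. Of 8 compared astrocyte genes, 6 were lower in both libraries and 1 higher. The higher one was Slc1a2, the main glial glutamate transporter, at 512 and 409 CPM against 405 and 362 CPM.

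The deep-layer spots, chosen by the mirror of the rule, were close to the upper-layer spots in depth. They numbered 93 (flat) and 91 (micropillar), with median depths of 2217 and 2316 UMIs. They are also part of all other spots, so these 2 sets overlap. Of 4260 genes compared, 18 were at least 2-fold higher in the upper-layer spots in both libraries (0.423%) and 12 at least 2-fold lower (0.282%). Over all these genes the median log2 ratio was close to 0 (0.02 in the micropillar library), and 49.8% and 51.9% lay above 0. The sign was the same in both libraries for 55.9% of genes. The deepest deep-layer spot, in the micropillar library, alone held 19053 UMIs. Slc17a7 itself, at 1733 and 1551 CPM in the upper-layer spots, was at 2008 and 1812 CPM in the deep-layer spots.

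Upper-layer genes outside the rule were higher in the upper-layer spots. Summed over 18 such genes, the list stood at 1015 CPM in upper-layer against 494 CPM in deep-layer spots of the flat library, a log2 ratio of 1.04 (0.71 to 1.38). In the micropillar library the levels were 782 against 534 CPM, a ratio of 0.55 (0.23 to 0.89). Of the 18 genes 5 were abundant enough to compare. Of these, 3 were higher and 1 lower in both libraries, and none was past 2-fold in both. Wfs1, an endoplasmic reticulum protein gene, stood at 202 and 201 CPM against 120 and 92.6 CPM, and its intervals lay above 0 in both libraries. Pou3f3, a transcription factor of upper-layer development, stood at 168 and 151 CPM against 76.7 and 128 CPM. Cux1, the relative of Cux2, differed between libraries, at 80.9 CPM against 24.0 CPM in the flat and 32.3 against 57.3 CPM in the micropillar library. The list is not silent elsewhere, since the matrix-gene spots held 763 and 538 CPM of it.

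**Figure D3:**
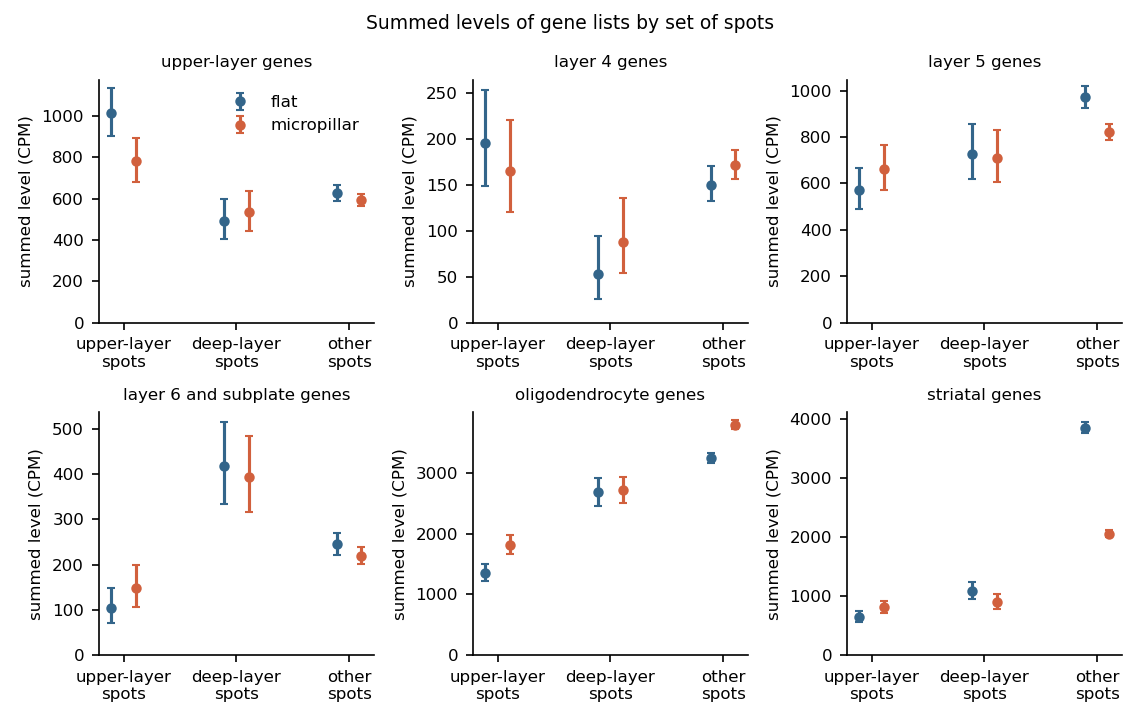
Summed level (CPM, vertical axis from 0) of 6 gene lists in upper-layer, deep-layer and all other spots, flat library in blue and micropillar library in orange, with exact 95% Poisson intervals for counting error. All other spots include the deep-layer spots. Upper-layer genes outside the rule are highest in the upper-layer spots (1015 and 782 CPM), and layer 6 and subplate genes are highest in the deep-layer spots (417 and 392 CPM).

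Of the layer 4 genes Kcnh5, a potassium channel gene, could be compared, at 87.6 and 64.6 CPM in upper-layer against 14.4 and 35.3 CPM in deep-layer spots. Summed over 6 genes, the layer 4 list stood at 195 and 165 CPM against 52.7 and 88.2 CPM, log2 ratios of 1.89 (0.95 to 2.97) and 0.91 (0.12 to 1.74). The list did not set the upper-layer spots apart from all other spots, which held 150 and 171 CPM. Those log2 ratios were 0.379 (-0.059 to 0.796) and -0.054 (-0.525 to 0.386). Matrix-gene spots held more of the list than the upper-layer spots, at 318 and 296 CPM.

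Deep-layer genes outside the rule were lower, most of all those of layer 6. Summed over 13 genes of layer 6 and subplate, the upper-layer spots held 104 CPM against 417 CPM in the flat library and 147 against 392 CPM in micropillar spots, log2 ratios of -2.0 (-2.64 to -1.39) and -1.42 (-1.99 to -0.87). Nxph3, which encodes a neurexin ligand of the deep cortex, was the 1 gene of this list that could be compared. It stood at 43.8 and 50.2 CPM in the upper-layer spots against 158 and 181 CPM in the deep-layer spots. Layer 5 genes differed less. Their sum had log2 ratios of -0.35 (-0.67 to -0.02) and -0.10 (-0.41 to 0.22), and 3 of 4 compared genes were lower in both libraries. Bcl11b, the transcription factor also known as Ctip2, stood at 111 against 278 CPM in the flat and 126 against 150 CPM in the micropillar library.

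Among all genes compared, Tmem215, a transmembrane protein gene, had the highest ratio to deep-layer spots. It gave 30 UMIs in 20 of the 126 flat and 14 UMIs in 13 of the 112 micropillar upper-layer spots, against 1 UMI in the deep-layer spots of each library. These counts make log2 ratios of 4.14 (1.81 to 9.75) and 3.24 (0.79 to 8.91). Stx1a was also past 2-fold in both libraries, at 280 and 223 CPM against 105 and 101 CPM. The other genes of highest ratio were Gga3, Cldn5, Herc3, Mvb12b, Prps2, Fat3, Dgke, Alkbh7 and Lifr. Each had between 16 and 38 UMIs in the upper-layer spots of a library, and only Gga3, Herc3 and Dgke had intervals above 0 in both libraries. Cldn5, the tight junction protein of brain endothelium, had 17 and 18 UMIs in upper-layer spots and 4 in the deep-layer spots of each library.

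The genes of lowest ratio included Nxph3, Ighm, Myl4, Tpbg, Cryab, B3galt2, Col6a1, Trhde and Nptx1. Myl4, a myosin light chain gene, stood at 43.8 and 61.0 CPM in upper-layer spots against 187 and 181 CPM in deep-layer spots. Nptx1, a secreted pentraxin that binds glutamate receptors, was the most abundant of those named, at 398 and 409 CPM against 834 and 926 CPM, log2 ratios of -1.07 (-1.42 to -0.72) and -1.18 (-1.52 to -0.84). Tpbg, a membrane glycoprotein gene, stood at 57.3 and 28.7 CPM against 292 and 79.4 CPM, and Cryab, a small heat shock protein gene, at 70.8 and 46.7 CPM against 220 and 123 CPM.

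Of the glial lists, that of oligodendrocytes was lower in the upper-layer spots of both libraries. The oligodendrocyte list stood at 1352 and 1813 CPM in upper-layer spots against 2679 and 2712 CPM in deep-layer spots, log2 ratios of -0.99 (-1.18 to -0.80) and -0.58 (-0.75 to -0.41), with 6 of 7 compared genes lower in both libraries. The summed level of inhibitory interneuron genes was close in both kinds of spot, with ratios of 0.05 (-0.12 to 0.22) and 0.04 (-0.14 to 0.21). Within that list Sst, the somatostatin gene, was lower in upper-layer spots, at 570 and 546 CPM against 810 and 719 CPM, with intervals below 0 in both libraries. Gad1, an enzyme that makes GABA, gave 20 and 18 UMIs against 5 and 8. GABA-A receptor genes, summed, had log2 ratios of 0.29 (0.11 to 0.46) and 0.20 (0.02 to 0.39), and 4 of 7 compared genes were higher in both libraries and 1 lower. Camk2n1 was higher in upper-layer spots too, at 5727 and 3952 CPM against 3000 and 2738 CPM, whereas synaptic vesicle genes had ratios of 0.03 and -0.04.

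**Figure D4:**
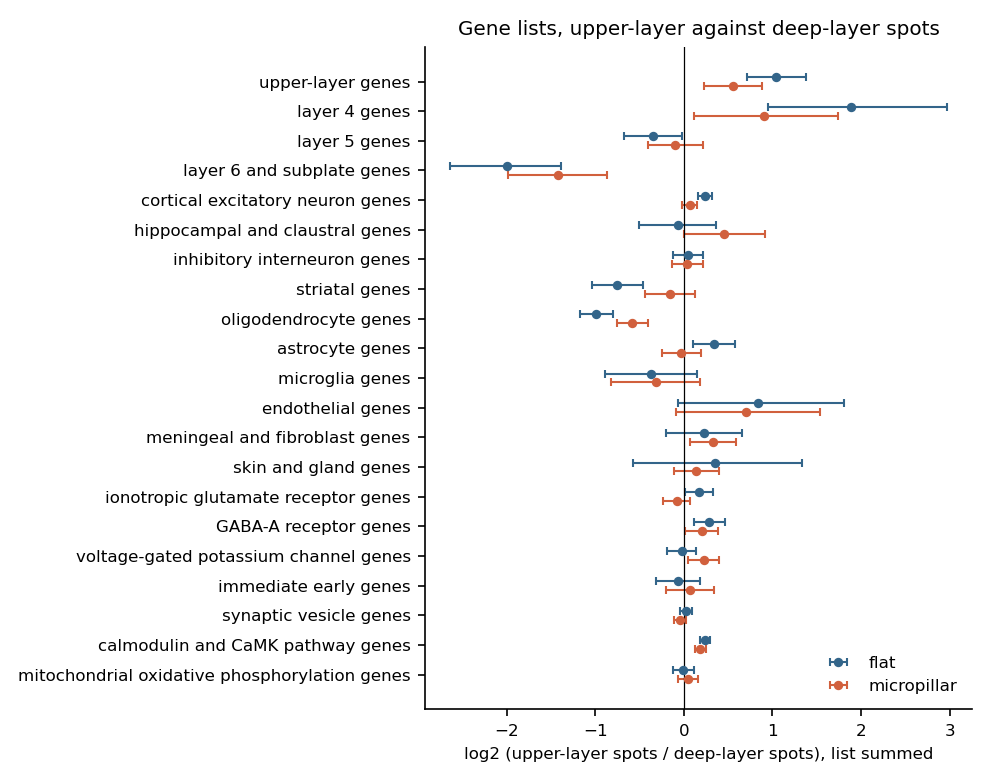
Log2 ratio of summed CPM in upper-layer over deep-layer spots (horizontal axis) for 21 gene lists, flat library in blue and micropillar library in orange, with 95% exact intervals for counting error. Layer 6 and subplate genes (-2.0 and -1.42) and oligodendrocyte genes (-0.99 and -0.58) lie to the left of 0, and the upper-layer list (1.04 and 0.55) to the right.

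The summed levels of gene lists varied from one upper-layer spot to the next. The oligodendrocyte list gave 401 UMIs over the 126 flat and 505 UMIs over the 112 micropillar spots, and the striatal list 192 and 226 UMIs. With so few UMIs per spot, counting error alone can give zeros and wide ranges, and variation beyond it was not tested. In the flat library the oligodendrocyte sum per spot ran from 0 to 7305 CPM with a median of 1137 CPM, and 11 of 126 spots had none. In the micropillar library it ran from 0 to 10040 CPM with a median of 1503 CPM, and 11 of 112 had none. The sum of cortical excitatory genes per spot ran from 4959 to 18260 CPM (median 11470) and from 1739 to 18130 CPM (median 9838), and no spot was at 0. Striatal genes were at 0 in 41 of the flat and 26 of the micropillar spots, with a highest value of 3932 CPM in the flat and 20260 CPM in a single micropillar spot.

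When spots were sorted by their leading upper-layer gene, Lamp5 led in 29, Rasgrf2 in 28, Calb1 in 24 and Cux2 in 2 of the flat spots, and 43 were tied. In the micropillar library the counts were 23, 18, 17 and 5, with 49 tied. The flat spots led by Calb1 held 342 CPM of layer 5 genes, and those led by Lamp5 and Rasgrf2 held 640 and 727 CPM. The micropillar spots led by Calb1 held 600 CPM, against 853 and 595 CPM. Oligodendrocyte genes stood at 1613 CPM in the flat and 2295 CPM in the micropillar spots led by Lamp5, above those led by Rasgrf2, at 1169 and 1322 CPM. These groups are small, and no test was made between them.

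Between the implants, upper-layer spots of the micropillar library held more RNA of skin, hypothalamus and connective tissue, and somewhat less of several neuronal lists. Of 4780 genes compared (at least 50 CPM in 1 library), 174 were at least 2-fold higher in the micropillar library (3.64%) and 126 at least 2-fold lower (2.64%), around a median log2 ratio of 0.01, with 51.6% of genes above 0. The interval left out 0 for 125 of the 174 and for 90 of the 126. With TMM scaling the balance turned, to 139 higher and 154 lower. Of 1231 genes with at least 200 CPM, 6 were past 2-fold in each direction (0.487%). Those higher were Col3a1, Col1a2, Col1a1, Gja1, Mucl2 and Afdn, and those lower were Plekho1, Camkk2, Npy, Dnajb1, Epop and Porcn. The 200 CPM minimum was chosen after the values were seen.

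The 12 genes of highest ratio included genes of gland, skin and hypothalamus. Mucl2, a mucin-like gene of glands, had 0 UMIs in the flat and 70 UMIs in the micropillar upper-layer spots, where 44 of 112 spots held it and none held more than 5. Against 3 counts in the flat spots this is at least 24.8-fold higher. The other flat spots held no Mucl2 UMI either, while the other micropillar spots held 1010, so the difference is one between the whole libraries. Gm1553 and Obp1a were likewise at 0 in the other flat spots, and Scgb1b2 gave 1 UMI there and 685 UMIs in the other micropillar spots. Scgb1b2, a secretoglobin gene, went from 0 to 48 UMIs (at least 17.0-fold), Gm1553 from 0 to 18, Obp1a, an odorant-binding protein gene, from 0 to 16, and the hair follicle keratin gene Krt71 from 0 to 15. Krt1, Flg, Sprr1a and Lgals7, genes of the cornified epidermis, and Lgals3, a galectin gene, gave 16 to 36 UMIs in the micropillar and 1 to 5 UMIs in the flat spots. Oxt, the oxytocin precursor gene, gave 54 UMIs in 18 micropillar spots and 6 UMIs in 6 flat spots, and Avp gave 36 and 4 UMIs.

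The same lists were higher outside the upper-layer spots. Skin and gland genes, summed over 11 genes, stood at 97.8 CPM in the flat and 1070 CPM in the micropillar upper-layer spots, a log2 ratio of 3.45 (2.90 to 4.06). In the flat upper-layer spots 7 of the 11 genes were at 0, and in the micropillar ones none was. In deep-layer spots the same sum stood at 76.7 and 970 CPM, a ratio of 3.66 (2.93 to 4.49). In all other spots, which include the deep-layer spots, it stood at 1495 and 3334 CPM, a ratio of 1.16 (1.09 to 1.22). At least 1 such UMI was present in 26 of the 126 flat (20.6%) and 82 of the 112 micropillar upper-layer spots (73.2%). At an equal 500 UMIs the shares were 7.14% and 42.0%, 1.08% and 19.8% in the deep-layer spots, and 17.3% and 54.4% in all other spots. Hypothalamic genes stood at 33.7 and 334 CPM in the upper-layer spots, 47.9 and 278 CPM in the deep-layer spots and 2401 and 4127 CPM in all other spots. In the deep-layer spots much of this came from the deepest spot, of 19053 UMIs. Without it the micropillar deep-layer sums were 101 CPM for hypothalamic genes, with a ratio of 1.08 (-0.07 to 2.33), and 592 CPM for skin and gland genes, with a ratio of 2.95 (2.19 to 3.80). The part of free or neighbouring RNA in any implant difference was not tested.

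Collagen genes rested on few spots. Col1a2, a chain of type I collagen, stood at 128 CPM in the flat and 452 CPM in the micropillar upper-layer spots, from 38 UMIs in 32 spots and 126 UMIs in 44 spots. Summed over 10 genes, the meningeal and fibroblast list stood at 425 and 1156 CPM, a log2 ratio of 1.44 (1.14 to 1.75). Of the micropillar upper-layer spots 7 (6.25%) held at least 10 UMIs of Col1a2 and Col3a1, and none of the flat ones did. Without those 7 spots the sum was 554 CPM and the ratio 0.38 (0.03 to 0.74). The skin and gland sum was then 699 CPM with a ratio of 2.84 (2.27 to 3.46), and the hypothalamic sum 181 CPM with a ratio of 2.42 (1.41 to 3.57).

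Several neuronal lists were lower in the micropillar upper-layer spots by smaller amounts, and others were not separable from equal levels. The calmodulin pathway list stood at 22810 CPM in the flat and 18290 CPM in the micropillar spots, a log2 ratio of -0.32 (-0.37 to -0.27), with 12 of 13 compared genes lower. Calm2, a calmodulin gene, stood at 7810 and 6311 CPM, and Camkk2, the kinase that activates CaMKI and CaMKIV, at 297 and 144 CPM. The list's ratio was -0.26 (-0.33 to -0.20) in deep-layer spots and -0.49 (-0.51 to -0.47) in all other spots. Genes of cortical excitatory neurons had a ratio of -0.27 (-0.34 to -0.20), with 12 of 15 compared genes lower, among them Mef2c at 593 and 334 CPM, against -0.10 (-0.18 to -0.01) in the deep-layer spots and -0.57 (-0.61 to -0.54) in all other spots. Synaptic vesicle genes had a ratio of -0.15 (-0.21 to -0.09), with 12 of 14 lower, and GABA-A receptor genes of -0.28 (-0.44 to -0.12), with 6 of 8 lower. The upper-layer list outside the rule had a ratio of -0.38 (-0.63 to -0.12), with 7 of 8 compared genes lower and 2 of them, Cux1 and Lhx2, past 2-fold. Its ratio was 0.112 (-0.279 to 0.506) in deep-layer and -0.083 (-0.198 to 0.031) in all other spots. Intervals spanned 0 for inhibitory interneuron (-0.081), ionotropic glutamate receptor (-0.096), voltage-gated potassium channel (-0.04), immediate early (-0.171) and layer 5 genes (0.213). Striatal genes were higher, at 0.326 (0.042 to 0.611).

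Without the 7 spots rich in matrix genes the ratio of the calmodulin list was -0.25 and that of the excitatory list -0.20. Oligodendrocyte genes went the other way, at 1352 and 1813 CPM with a ratio of 0.42 (0.23 to 0.62), and 6 of 7 compared genes were higher. Their ratio was 0.02 (-0.15 to 0.19) in deep-layer spots and 0.22 (0.18 to 0.27) in all other spots.

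**Figure D5:**
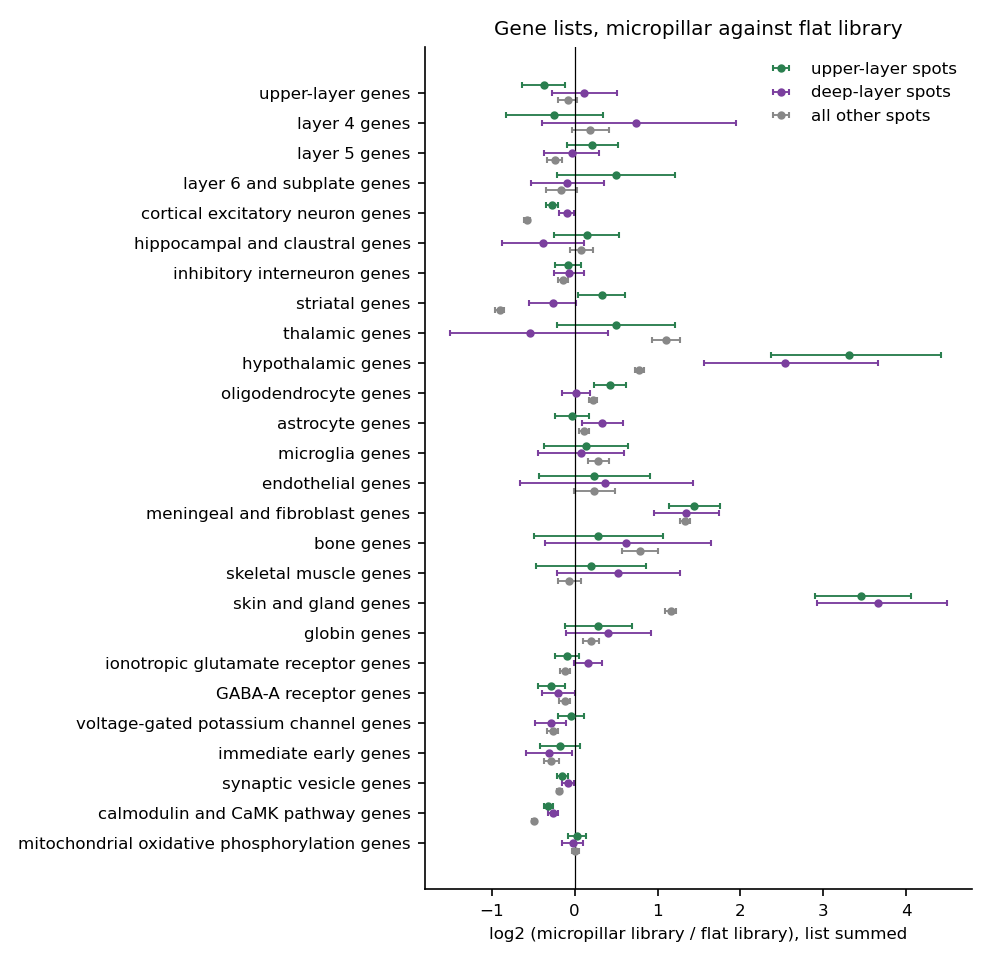
Log2 ratio of summed CPM in the micropillar over the flat library (horizontal axis) for 26 gene lists, in upper-layer spots (green), deep-layer spots (purple) and all other spots (grey), with 95% exact intervals for counting error. All other spots include the deep-layer spots. In upper-layer spots skin and gland genes (3.45) and hypothalamic genes (3.31) lie far to the right, and calmodulin pathway genes (-0.32) to the left of 0.

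Single genes with lower levels in the micropillar upper-layer spots were mostly sparse. Npy, the neuropeptide Y gene of a class of interneurons, was the most abundant of them past 2-fold, with 96 UMIs in 57 of 126 flat spots and 33 UMIs in 26 of 112 micropillar spots, and no spot above 6. This is 324 against 118 CPM, a log2 ratio of -1.44 (-2.07 to -0.87). In deep-layer spots Npy stood at 220 CPM in the flat and 181 CPM in the micropillar library. Sst, which many of the same interneurons express, stood at 570 and 546 CPM in the upper-layer spots, and Cck at 775 and 732 CPM. The 12 genes of lowest ratio were Cpd, Wdr54, Dipk2a, Pgr, Apod, Cdkn2aipnl, Tcap, Kitl, Sema4f, D130043K22Rik, Sorbs2 and Fam210a. They had between 15 and 29 UMIs in the flat and between 2 and 7 UMIs in the micropillar upper-layer spots. Kitl, the ligand of the receptor Kit, had 24 and 6 UMIs, and Cpd, a carboxypeptidase gene, 22 and 3 UMIs.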

How the data were processed

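Raw UMI counts per gene and spot, as deposited by the authors, were used. They came from spaceranger 2.0.1 per the file headers, but Cell Ranger 7.2.0 is the tool, and mm10 the build, in the submitters' processing notes. Per the labels' protocol the libraries were directional mRNA libraries. Probe set and settings are not given in these sources. The barcode and feature files hold names and were used as such. Both libraries list 19465 genes, and of 11 symbols on 2 rows the row with more counts was taken. Counts were summed over the spots of a set and expressed as CPM, and log2 ratios used a pseudocount of 1 CPM. Exact intervals are given (Clopper-Pearson for shares and for ratios of counts without a pseudocount, Poisson for sums) at 95%, covering counting error only, since UMIs of 2 libraries are no replicates. A gene with no UMI in 1 set was given a bound against 3 counts in that set. Replicates were not available (1 library per group), so no p-value is given, and "2-fold" is a size. Spots are not cells, so no doublet caller was run. Named genes were taken by rule: for other spots the 15 highest and 10 lowest of the smaller of both ratios among genes with at least 50 CPM, for deep-layer spots 10 and 10, for the implants 12 and 12 with at least 10 UMIs, and for each list its most abundant, highest and lowest member and all layer genes. Some genes that these rules select are not reported here. Other genes, Stx1a against deep-layer spots and those past 200 CPM among them, were named after their values were seen. The spots, their rule and the 26 gene lists were chosen with earlier results of these data known. Of 319 list entries 7 are not analysed here because no row carries their symbol. Python 3.11.15 with numpy 2.4.6, scipy 1.17.1 and pandas 2.3.3 was used, and R 4.3.3 with edgeR 4.0.16 (TMM factors) and DESeq2 1.42.0 (size factors) for alternative scalings only. The steps were tested on simulated data.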

Additional observations from a re-analysis of the deposited data

Results flagged for a closer look

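Spots under 500 UMIs, which no comparison used, also held Slc17a7. There were 52 Slc17a7 UMIs in such flat spots, which is 0.0159% of their 326318 UMIs, and 70 in such micropillar spots, 0.0257% of 272724 UMIs. Of these spots 1 of 1668 flat and 0 of 1105 micropillar spots met the marker part of the rule.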

How the results depend on the processing

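No paired analysis was possible because there is 1 library per group, and no library could be left out for the same reason. Scaling by TMM or DESeq2 factors, a pseudocount of 5 CPM and leaving out upper-layer spots with at least 10 matrix-gene UMIs (chosen after seeing the data) kept every count and list median within 1.5 times or inside its error, although TMM turned the balance between the implants from 174 higher and 126 lower to 139 and 154. Without the deepest deep-layer spot (added after seeing the data), the micropillar ratio to deep-layer spots was -1.51 for layer 6 and subplate genes and -0.52 for oligodendrocyte genes. The share of upper-layer spots (flat, then micropillar) was 0.268% and 0.182% at 500 UMIs, 4.33% and 2.57% at 1000 UMIs (added after seeing the data), 15.4% and 8.67% with a minimum of 1000 UMIs, 4.74% and 3.65% with a minimum of 100 UMIs, and 1.54% and 0.864% with at least 4 UMIs of Slc17a7 and of the upper sum. In the following, counts of genes past 2-fold are given higher first, then lower. Against other spots they were 12 and 36 with a minimum of 1000 UMIs, 52 and 286 when per-spot CPM were averaged, 39 and 414 from 20 CPM, 100 and 2038 from 1 UMI, 6 and 29 from 200 CPM, 291 and 863 for spots chosen at 500 UMIs (4 in each library), and 77 higher with 4 UMIs (23 and 19 spots). Against deep-layer spots they were 31 and 24 with per-spot CPM, 90 and 59 from 20 CPM, 530 and 352 from 1 UMI, 1 and 1 from 200 CPM, 441 and 472 at 500 UMIs and 165 and 147 with 4 UMIs. Between the implants they were 688 and 433 from 20 CPM, 2399 and 1598 from 1 UMI, 6 and 6 from 200 CPM, 1675 and 2174 at 500 UMIs and 1256 and 641 with 4 UMIs. Fewer spots and fewer genes enter by construction, and otherwise the cause was not tested. The median log2 ratio of the upper-layer list to other spots (flat, then micropillar) was 0.95 and 1.70 at 500 UMIs and 1.09 and 0.50 with 4 UMIs, and in the micropillar library 0.30 from 20 CPM and 0.28 from 1 UMI (0.73 as reported). The median of deep-layer genes to deep-layer spots was -8.78 and -7.52 at 500 UMIs and -2.87 and -1.88 with 4 UMIs, -0.98 in the micropillar library with per-spot CPM, and in the flat library -0.33 from 20 CPM and -0.69 from 1 UMI, against -1.31 and -0.65 as reported. Of 4181 values of single genes under alternatives (given where at least 10 UMIs would be met in the smaller set) 4024 moved by less than their error, 150 moved more and 7 changed direction. Calm2 against other flat spots was -0.043 with a minimum of 1000 UMIs and -0.19 at 500 UMIs, and between the implants 0.55 at 500 UMIs. With 4 UMIs, Synpr was -0.089 and Sdhb -0.007 against other micropillar spots, Pou3f3 -0.51 against other flat spots, and Gria1 -0.077 between the implants. Depth limits every gene under about 50 CPM, which is some 14 UMIs in a library's upper-layer spots.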

Other observations

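Immediate early genes, which neurons switch on after activity, did not set the upper-layer spots apart. Their sum stood at 1055 CPM in the flat and 937 CPM in the micropillar upper-layer spots, with log2 ratios to deep-layer spots of -0.07 (-0.32 to 0.18) and 0.07 (-0.20 to 0.34). Egr1, a zinc finger transcription factor, stood at 428 CPM in the flat and 302 CPM in the micropillar upper-layer spots, and at 431 and 260 CPM in the deep-layer spots. Cck, a neuropeptide gene of both excitatory and inhibitory cortical neurons, stood at 775 and 732 CPM in upper-layer spots against 375 and 313 CPM in all other spots, log2 ratios of 1.05 and 1.22. It was common in deep-layer spots too. A Cck UMI was present in 80.95% and 77.68% of the upper-layer spots and in 70.97% and 67.03% of the deep-layer spots. Of 13 compared voltage-gated potassium channel genes, 10 were higher than in all other spots in both libraries and none lower. Against deep-layer spots the summed list had log2 ratios of -0.025 (-0.191 to 0.142) and 0.225 (0.050 to 0.401). Spots rich in striatal genes held 1961 and 3058 CPM of it, beside 2407 and 2340 CPM in the upper-layer spots. Kcnh7, an ERG-type channel gene, stood at 148 CPM in the flat and 71.8 CPM in the micropillar upper-layer spots, against 57.1 and 40.6 CPM in the other spots.

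Of the spot barcodes, which are positions on the capture slide, 2135 were listed in both libraries, and 698 had at least 500 UMIs in both. Among those, 67 were upper-layer spots of the flat and 50 of the micropillar library, and 5 were so in both. This is 7.46% of the 67 and 10.0% of the 50, beside 7.13% of the other flat spots whose barcode was an upper-layer spot of the micropillar library.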
